A study of Homo sapiens with 6 samples.

Results

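DNA repair genes were taken as a list of 47 genes of the Fanconi anaemia pathway, homologous recombination, break sensing, mismatch repair, excision repair and end joining, and were found by matching the transcript identifiers of the count tables to GENCODE gene symbols. A counted transcript was matched for 45 of the 47 genes, among 37339 matched transcripts in all. FANCD2, the partner of FANCI, and ERCC5, an excision nuclease, were not matched and have no levels here, and only their promoter sequences are described. The libraries were 4 total RNA-seq and 2 PRO-seq libraries of untreated K562 cells, a human chronic myelogenous leukemia line, all grown from 1 source, so that the spread between replicates may be technical. PRO-seq counts engaged RNA polymerases along a transcription unit (TU), whereas RNA-seq after removal of rRNA counts steady-state RNA. The libraries held between 5732780 and 9002746 RNA-seq counts and 6993816 and 7245632 PRO-seq counts on TUs. The erythroid genes GATA1 and KLF1 were at 155 and 186 RNA-seq TPM, and the T cell gene CD3E, the liver gene ALB and the connective tissue gene COL1A1 were each under 1 TPM. EPCAM, an epithelial gene, was at 120 TPM.

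Cells meet different kinds of DNA damage with different machines. Damaged bases are cut out by glycosylases and the gap is resealed with XRCC1 and a ligase, bulky lesions are removed by nucleotide excision repair, and replication errors are removed by mismatch repair. Double-strand breaks are sensed by MRE11, RAD50 and NBN and signalled through the kinases ATM and ATR, and the ends are then either joined directly by the Ku complex, DNA-PKcs and ligase IV or repaired from the sister chromatid by BRCA1, BRCA2, PALB2 and the paralogs of the recombinase. The Fanconi core complex marks the FANCD2-FANCI dimer at crosslinks between the strands.

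The relative half-life of an mRNA was its RNA-seq TPM divided by its PRO-seq TPM, on a log2 scale on which the median mRNA is at 0. It has no time unit, and polymerase density also depends on how fast polymerases move. An estimate was made for TUs above 10 PRO-seq TPM and above 1 RNA-seq TPM, which 43 of the 45 matched DNA repair genes and 10053 TUs in all passed. In those genes the half-life spread over a wide range on both sides of the median mRNA, from -1.47 for FANCF to 4.33 for XRCC6, with a median of 0.20. By edgeR's quasi-likelihood test, adjusted over all 10053 TUs, 23 genes (53.5%) were above the median mRNA and 16 (37.2%) were below it, and FANCC, FANCE, FANCG and XPA were not called. The background of the same calls was 40.0% above and 50.4% below over all TUs tested, and 45.4% above and 44.9% below over 8733 mRNAs. The members' median RNA-seq level was 38.8 TPM, against 31.2 TPM for these mRNAs, and their median PRO-seq level was 52.9 TPM, against 47.5 TPM.

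Some promoters of DNA repair genes face another gene, and the stretches below lie between the starts of 4 such pairs. On the annotation, 17 of the 45 genes (37.8%) had a gene that starts within 1000 bp on the opposite strand and runs the other way, and in 14 (31.1%) that neighbour was protein coding. Of the mRNAs with an estimate, 28.6% had any such neighbour and 15.4% a protein-coding one. The stretch between the RefSeq starts is printed for 4 genes, from the neighbour's start to that of the repair gene, on the strand of the repair gene and in the coordinates of GRCh38.p14. XRCC4 and BRCA2 are shown because nascent transcription differed most between the sides among the pairs that could be printed, and PALB2 and PMS2 because it differed little. The stretches are chr5:83077395-83077546 for XRCC4, chr13:32315364-32315507 for BRCA2, chr16:23641311-23641465 for PALB2 and chr7:6009107-6009271 for PMS2. Capitals mark CCAAT boxes (CCAAT, or ATTGG on the other strand) and ETS sites (CCGGAAG, or CTTCCGG on the other strand), and the XRCC4 stretch holds neither. The promoter window used further below runs from 250 bases before to 50 after the start, past the ends of these stretches. In that window XRCC4 has a CCAAT box and an ETS site, and PALB2 has an ETS site.
XRCC4 from TMEM167A: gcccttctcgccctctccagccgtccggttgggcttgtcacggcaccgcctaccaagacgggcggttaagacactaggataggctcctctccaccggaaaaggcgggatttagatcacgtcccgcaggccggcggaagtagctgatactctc
BRCA2 from ZAR1L: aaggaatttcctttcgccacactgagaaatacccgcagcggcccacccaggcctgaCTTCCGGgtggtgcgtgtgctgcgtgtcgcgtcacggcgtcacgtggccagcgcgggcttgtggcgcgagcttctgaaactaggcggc
PALB2 from DCTN5: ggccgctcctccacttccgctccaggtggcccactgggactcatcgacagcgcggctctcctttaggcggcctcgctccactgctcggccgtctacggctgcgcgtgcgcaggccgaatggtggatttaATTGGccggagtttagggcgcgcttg
PMS2 from AIMP2: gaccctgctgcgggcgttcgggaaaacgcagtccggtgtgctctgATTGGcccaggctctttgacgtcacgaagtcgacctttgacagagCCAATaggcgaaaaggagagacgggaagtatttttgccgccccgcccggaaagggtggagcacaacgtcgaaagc

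Of the 15 pairs with a value on both sides, 9 had PRO-seq levels within 2-fold of each other. XRCC4, the scaffold of ligase IV, was at 11.8 and 11.0 PRO-seq TPM in the 2 libraries, and TMEM167A across its 152 bp promoter stretch was at 112 and 98.3 TPM. ATM, the kinase that signals double-strand breaks, was at 20 and 19.4 PRO-seq TPM, and NPAT, a regulator of histone genes that starts 429 bp away, was at 111 and 111 TPM. In both pairs the repair gene was the lower side in both libraries, by 9.23-fold for XRCC4 and 5.65-fold for ATM. In RNA-seq the ATM pair was close together, with 25.4 TPM for ATM and 24.8 TPM for NPAT. BRCA2, which loads the recombinase on DNA, was the higher side of its pair, at 24.3 and 24.0 PRO-seq TPM against 1.81 and 2.85 TPM for ZAR1L, which held 13 PRO-seq counts and 1 RNA-seq count in all. Both sides were alike for PALB2 (54.0 and 61.8 PRO-seq TPM) and DCTN5 (56.5 and 53.1 TPM), whose libraries overlapped. PMS2 was at 69.4 and 74.8 PRO-seq TPM and AIMP2 at 88.1 and 82.8 TPM, whereas in RNA-seq PMS2 had 19.0 TPM and AIMP2 142 TPM. XRCC6 and DESI1 showed the opposite order in RNA-seq, with 1020 TPM for XRCC6 and 27.3 TPM for DESI1 at PRO-seq levels of 78.8 and 92.3 TPM. XRCC3, with 99.4 and 98.2 PRO-seq TPM, was 3.90-fold above ZFYVE21, and APEX1 was 1.93-fold above OSGEP, a gene of tRNA modification. The pairs of CHEK2 with HSCB, MRE11 with ANKRD49, XPC with LSM3, BRCA1 with the noncoding NBR2 and RAD51C with TEX14 stayed within 1.49-fold in PRO-seq. RAD51C and TEX14 differed in RNA-seq, at 64.1 and 0.328 TPM. XRCC1 and ERCC3 faced genes near the detection limit, PINLYP with 3 PRO-seq counts and the noncoding ENSG00000286145 with 54. The neighbours of FANCL and PRKDC were not matched. Like and unlike PRO-seq levels thus both occurred between genes that start close together. Each level is a mean over a TU without its ends, with spans of 276 kb for XRCC4 and 146 kb for ATM. It is not a measure at the promoter, and the part of span, polymerase speed and counted transcript in these differences was not tested.

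End joining genes covered nearly the whole range of the list. XRCC6 encodes Ku70, 1 of the subunits of the ring that binds DNA ends, and had the highest RNA-seq level of the members, at 1030, 998, 1030 and 1030 TPM in the 4 libraries. Its PRO-seq levels were 77.7 and 79.9 TPM, which gave a half-life of 20.2 times that of the median mRNA (log2 4.33, SE 0.04, edgeR adjusted p = 1.9e-35). XRCC5, which encodes the other subunit Ku80, was at 461, 460, 481 and 477 RNA-seq TPM and 91.2 and 94.3 PRO-seq TPM (log2 2.97, SE 0.04, edgeR adjusted p = 1.1e-32). The lowest XRCC6 library was above the highest XRCC5 library in RNA-seq, and the order was the reverse in PRO-seq. The Ku subunits thus differed by 2.18-fold in RNA and 1.18-fold in nascent transcription, in opposite directions. XRCC6 therefore had the longer half-life in 8 of 8 combinations of an RNA-seq with a PRO-seq library. Such combinations reuse the same 4 RNA-seq and 2 PRO-seq libraries, so here and for other pairs they are not 8 separate observations. PRKDC, the gene of the DNA-PKcs kinase on chromosome 8, had 186, 176, 189 and 175 RNA-seq TPM and the second highest PRO-seq level of the members, 156 and 163 TPM. The half-life of PRKDC was 1.77 times that of the median mRNA (log2 0.82, SE 0.04, edgeR adjusted p = 1.5e-19), and this call was lost in the test for more than 2-fold.

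The subunits of the ligase IV complex were farther apart. XRCC4 had 42.2, 51.4, 51.7 and 52.3 RNA-seq TPM from the lowest PRO-seq level of the members with an estimate, and was 6.70-fold above the median mRNA in half-life (log2 2.74, SE 0.08, edgeR adjusted p = 4.2e-24). LIG4, the ligase itself, had 9.17, 9.89, 8.76 and 9.44 RNA-seq TPM and 26.1 and 33.6 PRO-seq TPM, and was below the median mRNA (log2 -1.04, SE 0.15, edgeR adjusted p = 1.4e-07). Every XRCC4 library was above every LIG4 library in RNA-seq and below it in PRO-seq. The log2 difference in half-life, LIG4 minus XRCC4, was -3.78, and ranged from -4.17 to -3.35 over the 8 combinations. The PRO-seq value of LIG4 rests on 67 and 88 counts.

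**Figure D1:**
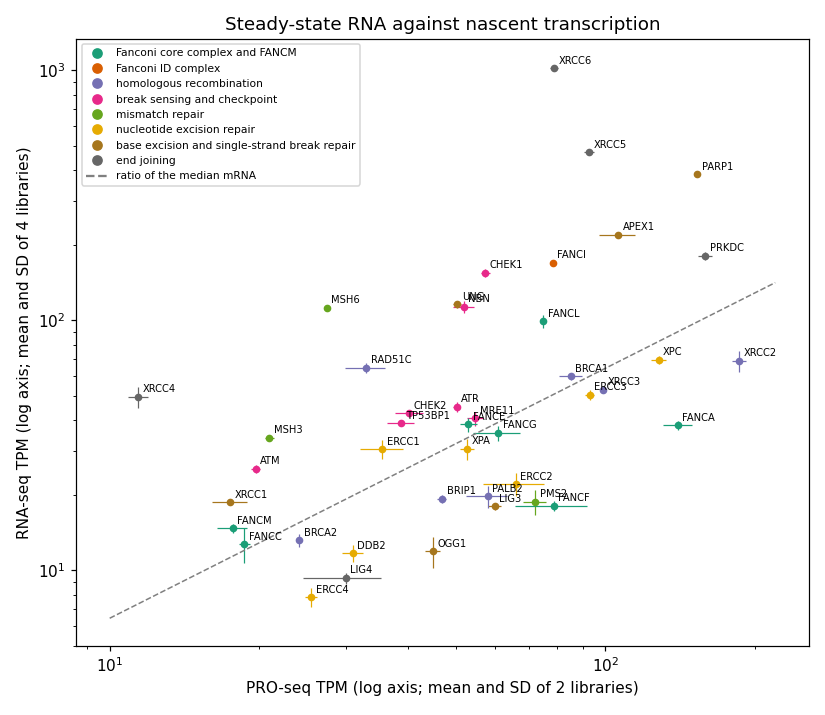
RNA-seq TPM (y axis) against PRO-seq TPM (x axis), both logarithmic, for the 43 DNA repair genes with an estimate, as the mean and SD of the libraries and coloured by pathway. The dashed line is the ratio of the median mRNA, 0.643. XRCC6 and XRCC5 stand above the line, and XRCC4 above it at the left edge with 11.4 PRO-seq TPM.

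Break sensing and checkpoint genes were above the median mRNA without exception among the 7 with an estimate, against 45.4% of mRNAs. Their median log2 half-life was 0.71. CHEK1, the effector kinase of the ATR branch, was highest at 155, 156, 148 and 162 RNA-seq TPM and 58.1 and 56.3 PRO-seq TPM (log2 2.08, SE 0.05, edgeR adjusted p = 7.4e-25). The counted CHEK1 transcript holds 36.7% of the canonical exon bases on 1.57 times the canonical span, and if all its PRO-seq reads lay in the canonical span the log2 half-life would be 1.40. NBN, the MRN subunit that recruits ATM, followed with 113 RNA-seq TPM, 51.8 PRO-seq TPM and a log2 half-life of 1.77. MRE11, the nuclease of that complex, was lowest at 36.9, 42.4, 40.0 and 42.6 RNA-seq TPM and 53.1 and 56.1 PRO-seq TPM (log2 0.20, SE 0.06, edgeR adjusted p = 0.0012). In nascent transcription the values of the group ran from 19.7 TPM for ATM to 57.2 TPM for CHEK1. ATM had 25.1, 25.2, 24.7 and 26.9 RNA-seq TPM and ATR, the kinase that answers to single-stranded DNA, had 44.5, 46.6, 42.7 and 46.8 TPM. ATR was thus 1.77-fold higher in RNA and 2.54-fold higher in nascent transcription, and ATM had the longer half-life in 8 of 8 combinations, by 0.52 on the log2 scale. CHEK2, the effector kinase of the ATM branch, was at 41.6, 42.4, 44.4 and 41.2 RNA-seq TPM, 3.66-fold under CHEK1, at PRO-seq levels of 38.4 and 42.1 TPM. TP53BP1, which shields broken ends from resection, was at 38.8 RNA-seq TPM and a log2 half-life of 0.64. The transcripts counted for NBN, ATM and CHEK2 are labelled nonsense-mediated decay in the annotation, not protein coding. With both lengths limited to the bases shared with the canonical transcript, the log2 half-lives of NBN, ATM and CHEK2 were 1.41, 1.03 and 1.17. With a test for a difference of more than 2-fold, CHEK1 and NBN kept their calls in this group.

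RAD50 and RAD51D fell under the thresholds. RAD50, the long coiled-coil subunit that links MRE11 and NBN, had 2.39, 2.65, 2.45 and 2.02 RNA-seq TPM and 1.05 and 1.42 PRO-seq TPM, from 24 and 33 PRO-seq counts. RAD51D, a paralog of the recombinase, had 7.17, 7.43, 7.95 and 6.90 RNA-seq TPM and no PRO-seq count in either library. Both lie inside another counted TU on the same strand, which covers 99.7% of the PRO-seq span and 91.0% of the exons of RAD50 and 100% of the span and 4.24% of the exons of RAD51D. These TUs, ENSG00000283782 and ENSG00000267618, held 298 and 198 PRO-seq counts. Of 753 mRNA TUs wholly covered by another TU on the same strand, 7.17% had any PRO-seq count, against 90.2% of 10901 that were not covered. On the length of unshared bases 44 members had an estimate instead of 43, RAD50 among them, whereas RAD51D has no unshared PRO-seq span. Beyond this, the part of the overlap in the levels of RAD50 and in the PRO-seq level of RAD51D was not tested. Nothing is read from these low values. On GRCh37, RAD50 lies at chr5:131892669-131982041 on the plus strand and RAD51D at chr17:33419240-33446879 on the minus strand.

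Homologous recombination genes lay mostly below the median mRNA, 5 of the 7 with an estimate (71.4%, against 44.9% of mRNAs). Their median PRO-seq level, by which the RNA-seq level is divided, was 57.9 TPM. XRCC2, another of these paralogs, had the highest PRO-seq level of all members, 190 and 181 TPM, and 64.2, 71.6, 62.6 and 77.0 RNA-seq TPM (log2 -0.79, SE 0.06, edgeR adjusted p = 1.2e-13). PALB2, which bridges BRCA1 and BRCA2, had the lowest half-life of the group, with 18.6, 21.0, 17.7 and 22.0 RNA-seq TPM (log2 -0.90, SE 0.08, edgeR adjusted p = 6.4e-12). BRIP1, a helicase that binds BRCA1, was at 19.2 RNA-seq TPM and a log2 half-life of -0.64. RAD51C stood apart from the group, at 60.6, 64.6, 67.4 and 65.0 RNA-seq TPM and 35.1 and 30.7 PRO-seq TPM (log2 1.60, SE 0.07, edgeR adjusted p = 5.6e-19). Its partner XRCC3 had 52.8, 52.3, 54.4 and 51.4 RNA-seq TPM and 99.4 and 98.2 PRO-seq TPM. The RAD51C and XRCC3 RNA levels were thus within 1.22-fold, whereas nascent transcription of XRCC3 was 3.01-fold higher, and the half-life of RAD51C was the longer in 8 of 8 combinations. BRCA2 was at 13.3, 12.1, 13.7 and 13.8 RNA-seq TPM, under every PALB2 library, and its half-life was the longer of that pair in 8 of 8 combinations (log2 difference 0.68). BRCA1, the ubiquitin ligase of this pathway, was at 59.8 RNA-seq TPM and 85.1 PRO-seq TPM, with a log2 half-life of 0.13 (SE 0.05, edgeR adjusted p = 0.010). The BRCA1 call was lost without PRO-seq replicate 1, with an edgeR adjusted p of 0.14. It was also lost with 500 bp instead of 1000 bp taken off the PRO-seq span, with an edgeR adjusted p of 0.079. Stricter TPM thresholds (edgeR adjusted p = 0.068) and the test for more than 2-fold lost it too. The calls of BRCA2 and XRCC3 were lost when values were centred on the median of all TUs, where BRCA2 was at 0.00 and XRCC3 at -0.03. Without TPM thresholds the median mRNA is lower. There BRCA2 (0.39) and XRCC3 (0.36) were called above it (edgeR adjusted p = 2.8e-08 and 2.2e-06). In that run BRIP1 was not called, and PALB2 and XRCC2 stayed below, so the majority below depends on the thresholds.

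The Fanconi core genes lay on both sides of the median mRNA, with 2 above, 2 below and 3 not called among 7. FANCL, the ubiquitin ligase subunit, was highest at 91.0, 100, 99.1 and 106 RNA-seq TPM and 75.6 and 74.3 PRO-seq TPM (log2 1.03, SE 0.06, edgeR adjusted p = 4.8e-17). FANCF, an adaptor of the complex encoded by a single exon of 3291 bases, was lowest of all members in half-life, at 19.1, 18.3, 17.5 and 17.4 RNA-seq TPM and 87.8 and 69.5 PRO-seq TPM (log2 -1.47, SE 0.18, edgeR adjusted p = 7.3e-09). The value of FANCF had the largest SE of the members and rests on 52 and 42 PRO-seq counts. Its place as the lowest did not hold in every run. With 500 bp instead of 1000 bp taken off the PRO-seq span, FANCF was at -1.24 and PMS2 at -1.32. FANCA, the largest core subunit, was also low in half-life (log2 -1.24) from 140 PRO-seq TPM and 38.2 RNA-seq TPM. The other core subunits FANCE and FANCG were at 38.3 and 35.1 RNA-seq TPM with log2 half-lives of 0.17 and -0.16, and neither was called. FANCM, the translocase that anchors the complex on DNA, was at 14.7 RNA-seq TPM and 0.36, and FANCC at 12.9 TPM and 0.09. The counted FANCC transcript holds 13.8% of the exon bases of the canonical one, and with both lengths limited to the shared bases FANCC was below the median mRNA (log2 -0.59, edgeR adjusted p = 0.00011). FANCI, the substrate of the complex, was higher in RNA-seq than every core gene, at 166, 169, 173 and 171 RNA-seq TPM and 78.0 and 78.4 PRO-seq TPM (log2 1.75, SE 0.04, edgeR adjusted p = 4.1e-26).

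Nucleotide excision repair genes had the lowest share above the median mRNA, 1 of 7 (14.3%, against 45.4% of mRNAs). Below it were 5 (71.4%, against 44.9% of mRNAs). ERCC4, the XPF nuclease, had the lowest RNA-seq level of the members with an estimate, 7.26, 7.71, 7.42 and 8.78 TPM, from 25.0 and 26.0 PRO-seq TPM (log2 -1.08, SE 0.10, edgeR adjusted p = 2.8e-11). ERCC1, its obligate partner, was at 34.0, 31.2, 28.7 and 27.9 RNA-seq TPM and 33.1 and 38.0 PRO-seq TPM (log2 0.43, SE 0.08, edgeR adjusted p = 5.5e-06). ERCC1 was thus 3.91-fold higher in RNA and 1.39-fold higher in nascent transcription, in every library. The counted ERCC1 transcript spans 71.5 kb and the canonical one 16.6 kb. If all its PRO-seq reads lay in the canonical span, the log2 half-life would be -1.70, and with both lengths limited to the bases shared with the canonical transcript the call reversed, at -1.67. The TFIIH helicases were ordered ERCC3 over ERCC2 in every library, with 51.2, 51.5, 46.9 and 52.1 RNA-seq TPM for ERCC3 and 24.0, 19.6, 24.1 and 20.7 TPM for ERCC2. ERCC2 also had the shorter half-life in 8 of 8 combinations, with log2 values of -0.95 for ERCC2 and -0.24 for ERCC3. XPC, which finds distorted DNA, had 128 PRO-seq TPM and 69.6 RNA-seq TPM and was just under the median mRNA (log2 -0.25). DDB2, which detects ultraviolet lesions, had 30.9 PRO-seq TPM and 11.7 RNA-seq TPM (log2 -0.76), and XPA, the scaffold of the incision complex, had 52.6 and 30.2 TPM and was not called. The calls of XPC and ERCC3 were lost when values were centred on the median of all TUs, where ERCC3 was at 0.00 and XPC at -0.01. Without TPM thresholds ERCC3 (0.39), XPC (0.38) and XPA (0.47) were called above the median mRNA, which is lower in that run. DDB2 was not called there, and ERCC2 and ERCC4 stayed below, so these shares also depend on the thresholds.

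Base excision and single-strand break repair genes divided into a high and a low set. PARP1, which senses nicks and makes poly(ADP-ribose), was among the 3 highest members in RNA-seq and in PRO-seq, with 382, 385, 381 and 384 RNA-seq TPM and 154 and 151 PRO-seq TPM (log2 1.97, SE 0.04, edgeR adjusted p = 1.9e-28). UNG, which removes uracil, was at 116 RNA-seq TPM and 50.2 PRO-seq TPM (log2 1.85). APEX1, the endonuclease that cuts the backbone where a base is missing, was at 221 RNA-seq TPM and 107 PRO-seq TPM (log2 1.69), from 41 and 47 PRO-seq counts on a TU of 2582 bp. OGG1, the glycosylase for oxidized guanine, was lowest at 9.42, 13.1, 12.3 and 13.0 RNA-seq TPM and 45.9 and 43.8 PRO-seq TPM (log2 -1.28, SE 0.13, edgeR adjusted p = 1.1e-10). The counted OGG1 transcript holds 18.0% of the exon bases of the canonical one, so its levels describe that transcript. With both lengths limited to the bases shared with the canonical transcript the log2 half-life of OGG1 was -2.35. XRCC1 and its partner LIG3, the ligase that seals the nick, had like RNA levels, at 19.2, 18.4, 18.8 and 18.2 RNA-seq TPM for XRCC1 and 18.2, 17.6, 17.4 and 18.7 TPM for LIG3, which overlapped. Their PRO-seq levels were 16.5 and 18.5 TPM for XRCC1 and 58.5 and 61.1 TPM for LIG3, a 3.43-fold difference. Another TU on the same strand covers 63.5% of the PRO-seq span of XRCC1, and with the length of unshared bases the log2 half-life of XRCC1 was -0.53 instead of 0.73 and the call reversed (edgeR adjusted p = 8e-05).

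Mismatch repair genes gave 2 values above the median mRNA and 1 below. MSH6, a subunit of the sensor of single mismatches, had 113, 111, 113 and 111 RNA-seq TPM and 27.6 and 27.3 PRO-seq TPM (log2 2.66, SE 0.05, edgeR adjusted p = 1.3e-29). MSH3, a subunit of the sensor of larger loops, had 34.3, 32.5, 34.7 and 33.6 RNA-seq TPM and 21.4 and 20.7 PRO-seq TPM (log2 1.32). MSH6 was higher than MSH3 in every library, by 3.31-fold in RNA and 1.30-fold in nascent transcription. The counted MSH6 transcript spans 114 kb against 23.8 kb for the canonical one, and if all its PRO-seq reads lay in the canonical span the log2 half-life would be 0.41. With both lengths limited to the bases shared with the canonical transcript it was 1.37, and MSH6 stayed above the median mRNA. PMS2, the mismatch repair endonuclease, had 18.3, 21.0, 15.9 and 20 RNA-seq TPM and 69.4 and 74.8 PRO-seq TPM (log2 -1.28, SE 0.07, edgeR adjusted p = 3.5e-16). PMS2 is uncertain, since it has several near-identical copies, of which PMS2P1 alone held 660 RNA-seq and 407 PRO-seq counts.

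Across the members, RNA-seq levels spread more than PRO-seq levels. The highest and lowest RNA-seq levels of the 43 estimated genes differed by 131-fold and the PRO-seq levels by 16.3-fold, and the SDs of their log2 values were 1.59 and 0.96. Over all mRNAs with an estimate, these SDs were 2.05 and 1.24. Spearman's rho of RNA-seq and PRO-seq TPM was 0.566 over the 43 genes and 0.551 over 8733 mRNAs, as a description across genes that share libraries. In RNA-seq, 10 members were above 100 TPM, namely APEX1, CHEK1, FANCI, MSH6, NBN, PARP1, PRKDC, UNG, XRCC5 and XRCC6, and each of these was above the median mRNA in half-life. In PRO-seq, 6 members were above 100 TPM, and of these FANCA, XPC and XRCC2 were below the median mRNA. Half-life and RNA level share the RNA-seq counts, so their agreement in order (rho 0.731) is in part built in.

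The counted transcripts of the members were longer and had more exons than those of other mRNAs, with a median span of 47.4 kb, against 29.5 kb, and a median of 15 exons, against 9. Spearman's rho of half-life with the number of splice junctions per kb of exon was 0.414 over the 43 genes and 0.369 over all mRNAs, and with the span it was 0.402 over the 43 genes and 0.0289 over all mRNAs. These are descriptions across genes that share libraries, and the lengths enter the half-life itself. For 30 of the 45 genes the counted transcript was the canonical one. CHEK1, FANCC, OGG1, TP53BP1 and ERCC1 were counted on transcripts with under 90% of the canonical exon bases, down to 13.8% for FANCC, and MSH6, ERCC1, OGG1 and CHEK1 on spans over 1.5 times the canonical one. Without these genes and XRCC1, 18 of 36 were above the median mRNA and 15 below, with a median log2 half-life of 0.15.

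The RefSeq promoter table, on GRCh38.p14, held 43 of the 47 genes and not FANCI, NBN, XRCC5 and PRKDC. Among the 43 are ERCC5, FANCD2, RAD50 and RAD51D, which had no half-life estimate. An E2F-type match (TTTCCCGC, TTTGGCGC or TTTCGCGC, on either strand, from 250 bases before to 50 after the start) was present in 7 of 43 (16.3%), against 5.05% of 7226 promoters of mRNAs with an estimate and 2.74% of all 35116 promoters. The 7 genes were FANCC, FANCD2, MSH3, MSH6, XPC, XRCC2 and XRCC6. The matches of MSH6, XRCC2 and XRCC6 begin after the start, and that of FANCD2 spans it. The XPC match lies beyond the start of the neighbour LSM3. The match of FANCC nearest its start and the first of the overlapping matches of MSH3 are printed with 10 bases on each side, on the strand of the gene, since both lie wholly before the start, at chr9:95317738-95317765 and chr5:80654535-80654562. Capitals mark the match.
FANCC: tcgtcggaatTTTCCCGCgacgccgcgg
MSH3: cgcggtcaagTTTGGCGCgaaattgtgg

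Among members with an estimate, the median PRO-seq level was 53.1 TPM for the 6 with an E2F-type match and 52.6 TPM for the 33 without. ETS sites were present in 15 of 43 promoters (34.9%), against 22.7% of the promoters of mRNAs with an estimate, and CCAAT boxes in 21 (48.8%), against 38.1%. Of those 15, 11 had an estimate (ERCC5, FANCD2, RAD50 and RAD51D had none), with a median of 38.7 PRO-seq TPM, against 58.5 TPM for the 28 members with an estimate and no ETS site. A CHR element (TTTGAA) was found in 9.30% of the members' promoters and 9.60% of the others, and the NRF1 site in none of the members' promoters and 2.68% of the others. The median PRO-seq level was 50.2 TPM for the 21 estimated members with a CCAAT box and 52.7 TPM for the 18 without. For the CHR element it was 19.2 TPM for 4 members with it and 54.6 TPM for 35 without. The shares are descriptions of the sequence windows, and differences between the medians were not tested.

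The 92 further DNA repair genes outside the list gave a like picture, with 77 estimates, 41 above the median mRNA (53.2%) and 31 below (40.3%), and a median log2 half-life of 0.28. The lowest were SLX4 (-3.08), a nuclease scaffold, MDC1 (-2.34), a reader of phosphorylated H2AX, and DCLRE1C (-2.23), the Artemis nuclease. The highest were NTHL1 (3.11), a glycosylase, ABRAXAS1 (2.88), a subunit of the BRCA1-A complex, and FEN1 (2.61), the flap endonuclease. DNA replication genes, 44 in the list and 38 with an estimate, had 34 above (89.5%) and 3 below (7.89%), with a median of 1.09. Over all mRNAs with an estimate these shares were 45.4% and 44.9%.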

How the data were processed

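PRO-seq and RNA-seq were made from K562 cells, and the analysis started from the deposited read counts, which the authors made per transcript with HTSeq. Before counting, they trimmed reads with Cutadapt and aligned them to GRCh38 with HISAT2, and the counts were deposited without normalization. The sources used here do not give tool versions. Counting used strand, as read from the counts: mRNA TUs wholly covered on the other strand alone kept PRO-seq counts in 77.7% of cases and those covered on the same strand in 7.17%.

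Transcript lengths and gene names came from GENCODE annotation on GRCh37, joined by transcript identifier, which may not match the lengths on the build used for counting. Per the file names, the longest transcripts were counted, which held on this annotation against the canonical transcript of each member except ATM (145631 against 146036 bp). Rows without a TU name were left out, with 66.5% to 68.6% of RNA-seq records and 86.5% and 88.6% of PRO-seq records. Unmatched TUs held 2.80% to 3.69% of the counts.

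To obtain TPM, the counts of an assay's libraries were summed and divided by exon length for RNA-seq and by the span less 1000 bp for PRO-seq. RNA-seq was compared with PRO-seq by the quasi-likelihood test of edgeR (4.0.16, in R 4.3.3), with TMM normalization, offsets for length, the median mRNA at 0 and Benjamini-Hochberg adjustment over 10053 TUs. Calls are at an adjusted p under 0.05. The edgeR and TPM values of a member differed by at most 0.00417 on the log2 scale. In simulated data of this comparison, 91% of 200 TUs with a log2 change of 1 among 10053 were recovered, with 5 false calls. These data had 1 fixed dispersion, known lengths and no difference in the other TUs. They check the test and cannot give the error rate of the real calls. Copies of 1 molecule made by PCR may have been counted more than once.

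The members and lists were chosen with earlier results of these data known. Named in full are, for each pathway, the members with the highest and lowest half-life, the 3 highest and 3 lowest RNA-seq and PRO-seq levels, members under a threshold and partner genes, and of further repair genes the 3 highest and 3 lowest called. Alternatives were DESeq2 (version 1.42.0), library totals, a replicate block, close pairs of RNA-seq libraries summed, other thresholds, lengths and centres, and each library left out. Those on unshared bases, canonical lengths and members with a matching transcript were added after seeing the data.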

Additional observations from a re-analysis of the deposited data

Results flagged for a closer look

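Among the 45 matched genes, 2 had 1 RNA-seq library farther from the others than Dixon's 95% critical value for 4 samples allows, which chance gives for about 1 in 20 groups. XRCC4 was at 42.2 TPM in RNA-seq replicate 1 and between 51.4 and 52.3 TPM in the other libraries (ratio 0.912). ERCC3 was at 46.9 TPM in RNA-seq replicate 3 and between 51.2 and 52.1 TPM in the other libraries (ratio 0.832).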

How the results depend on the processing

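The counts of 23 members above and 16 below the median mRNA stayed within 1.5 times under DESeq2, library totals, a replicate block, 500 bp removed and other centring. Leaving out each library gave 22 to 24 above and 16 to 17 below, and medians of 0.18 to 0.25. With the replicate block the counts were 23 and 16, and 40 and 29 for the further repair genes. Replicate numbers do not pair the samples (r = -0.00673 over 9962 TUs for the differences of replicates 1 and 2). RNA-seq replicates 1 and 3 had like shares of records naming no TU (68.5% and 68.6%), as had replicates 2 and 4 (66.5% each). The labels name no such pairs, and the main test takes the 4 libraries as separate. With these pairs summed the counts were 23 and 16, and the edgeR adjusted p of BRCA1 was 0.033 instead of 0.01. A test for more than 2-fold gave 12 above and 5 below, and 22 and 16 for the further genes. Without TPM thresholds 10 members and 20 further genes were below, and the members' median was 0.91. With stricter thresholds it was 0.11.

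Of the 43 estimates, 17 kept direction and call under every alternative run. Without TPM thresholds the median mRNA itself is lower. There FANCG (0.48), BRCA2 (0.39), XRCC3 (0.36), ERCC3 (0.39), XPA (0.47) and XPC (0.38) were called above it. Centred on the median of all TUs, BRCA2 (0.0035) and ERCC3 (0.0013) were above 0 but not called. With lengths shared with the canonical transcript FANCC was at -0.59 and ERCC1 at -1.67, and with unshared bases XRCC1 was at -0.53. The calls of FANCL, FANCM, PALB2, XRCC2, MRE11, ATM, ATR, CHEK2, TP53BP1, ERCC2, ERCC4, LIG4 and PRKDC were lost only in the 2-fold test. That test asks for a larger difference. For the remaining members whose call or direction changed, the cause was not tested. Counts limit the PRO-seq values of short TUs such as APEX1 and FANCF.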
